A study of Mus musculus with 6 samples.

Results

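The troponin genes encode the calcium switch of striated muscle, in isoforms named for fast skeletal, slow skeletal and cardiac muscle. Of 7 genes chosen by symbol (Tnnt1, Tnnt2, Tnnt3, Tnni1, Tnni2, Tnnc1 and Tnnc2), 6 were measured among the 14515 genes of the deposited table, and Tnnc2 was not analysed here. Their RNA was read in all 6 libraries, made from mouse muscle satellite cells. The groups were 2 libraries labelled wt (wild type), 2 labelled mdx, the dystrophin-mutant mouse model of muscular dystrophy, and 2 labelled mdx/Ripk3mKO, which carry the mdx background and a change of Ripk3 that the labels do not spell out. The sample labels call the cells quiescent satellite cells, sorted and used directly. By contrast, the text on the series speaks of wild-type cells, activated and grown for 72 hours below a transwell of wt, mdx or mdx/Ripk3mKO cells. Under that account the genotype belongs to the cells above, so each group is named here by its label. Neither source gives the age or strain of the mice. Nor do they say if paired libraries are different mice or dishes, and the p-values below rest on a spread that may be technical.

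Troponin sits on the actin thin filament as a complex of troponin C, troponin I and troponin T. Troponin C binds calcium, troponin I holds back the contact of actin with myosin until calcium is bound, and troponin T ties the complex to tropomyosin. Differentiating myoblasts switch these genes on as they build their first sarcomeres, and developing skeletal muscle transiently expresses Tnnt2, the gene of cardiac troponin T.

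The 250 bases before the annotated start are shown for the 4 measured genes found in the RefSeq promoter table (build GRCm38.p6). All measured members were highest in the same library, described further on, and any link of these sequences to that was not tested. Capitals mark each E-box (CANNTG, the core bound by Myod1 and myogenin), each MCAT element (CATTCC, bound by TEAD factors, read on both strands) and each TATAAA.
Tnnt1, chr7:4515976-4516225, minus strand: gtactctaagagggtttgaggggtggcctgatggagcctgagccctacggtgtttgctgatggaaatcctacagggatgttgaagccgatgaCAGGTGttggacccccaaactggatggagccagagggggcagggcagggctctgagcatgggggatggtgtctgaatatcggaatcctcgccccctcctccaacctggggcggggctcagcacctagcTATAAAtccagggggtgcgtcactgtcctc
Tnnt2, chr1:135836084-135836333, plus strand: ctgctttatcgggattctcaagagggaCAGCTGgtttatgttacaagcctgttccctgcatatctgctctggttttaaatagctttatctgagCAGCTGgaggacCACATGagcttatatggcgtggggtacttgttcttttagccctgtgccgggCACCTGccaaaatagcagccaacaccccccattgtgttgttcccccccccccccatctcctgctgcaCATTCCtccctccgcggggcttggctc
Tnni1, chr1:135799171-135799420, plus strand: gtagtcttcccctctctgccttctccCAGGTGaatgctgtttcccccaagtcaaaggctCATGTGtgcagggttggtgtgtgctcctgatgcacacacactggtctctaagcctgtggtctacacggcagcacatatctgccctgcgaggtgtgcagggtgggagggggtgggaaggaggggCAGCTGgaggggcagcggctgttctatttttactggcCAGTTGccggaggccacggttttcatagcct
Tnnc1, chr14:31208062-31208311, plus strand: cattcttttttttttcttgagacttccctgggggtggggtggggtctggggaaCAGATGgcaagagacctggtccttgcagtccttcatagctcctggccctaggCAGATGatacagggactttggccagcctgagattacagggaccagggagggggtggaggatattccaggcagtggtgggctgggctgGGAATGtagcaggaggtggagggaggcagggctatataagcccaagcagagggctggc
The windows of Tnnt2 and Tnni1 held 4 E-boxes each, that of Tnnc1 held 2 and that of Tnnt1 held 1. Of 32851 windows of the same length, 66.2% held at least 1 E-box and 3.84% held at least 4. An MCAT element lay 27 to 22 bases before the start of Tnnt2 and 58 to 53 bases before that of Tnnc1, and 12.6% of windows held one. Tnnt1 had TATAAA at 30 to 25 bases before its start, a motif found in 12.4% of windows. These positions count from the RefSeq starts. For Tnnt1, Tnnt2 and Tnni1 those starts differ from the gene coordinates printed further on, and for Tnnc1 they match. Both strands were searched, and no match overlapped another. The MEF2 motif and the CArG box of serum response factor had no match in these 4 windows, and were in 2.92% and 1.47% of all windows. A match describes the letters only and was not tested as a binding site.

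Values are scaled counts, that is, read counts that the authors had scaled between libraries and rounded. Their totals lay between 20611974 and 21037153 per library. Totals before scaling, estimated from whole numbers that rounding had skipped or doubled, were 17994044 to 19663823 in wt and mdx and 25025783 to 25328732 in mdx/Ripk3mKO, so depth and that label cannot be told apart. At these depths the 95% counting error of a troponin value was at most 3.71% of it, which covers counting alone. Ripk3, the gene named in the labels, stood at 45 and 32 scaled counts in wt, at 23 and 36 in mdx and at 17 and 33 in mdx/Ripk3mKO, so the groups overlapped. Dystrophin, Dmd, was at 324 and 432 in wt, at 531 and 692 in mdx and at 474 and 294 in mdx/Ripk3mKO. Library 1 labelled mdx/Ripk3mKO stood apart in sex-linked transcripts, with 6918 scaled counts of Xist against 164 to 666 elsewhere and 373 of the Y-linked Ddx3y against 1543 to 1785 elsewhere. Fold changes and list counts or medians are therefore also given without it, while the likeness of profiles was computed over all 6 libraries only.

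The troponin genes were among the most abundant transcripts by their mean over the 6 libraries. Together the 6 genes summed to 66065 and 64204 scaled counts in the wt libraries, to 82822 and 73527 in mdx and to 73606 and 59636 in mdx/Ripk3mKO. Genes were ranked by scaled count per kilobase of the principal annotated transcript, averaged over the 6 libraries. Among 14502 genes the highest member, Tnnt3, was at rank 33 and the lowest, Tnni2, at rank 227. The satellite cell factor Pax7 was present at 1755 to 2119 scaled counts, and the proliferation marker Mki67 at 13883 to 16904. Myogenin was at 26795 to 35263 and embryonic myosin, Myh3, at 110791 to 164134. Whether the account of the sample labels or that of the series text applies to these cells was not tested. In bulk RNA, fewer cells of a type and less RNA per cell cannot be told apart, so these levels do not say how many cells made troponin.

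Per kilobase of transcript, the order of the mean levels was Tnnt3, Tnnc1, Tnnt2, Tnnt1, Tnni1 and Tnni2. Fast troponin T, Tnnt3, lay between 18024 and 24618 scaled counts per kilobase over the 6 libraries, above every other member. Tnnc1, the troponin C shared by slow and cardiac muscle, lay between 11933 and 17103, and Tnnt2 between 10890 and 15797. These ranges overlapped, although Tnnc1 was the higher of the pair in all 6 libraries. Slow troponin T, Tnnt1, lay between 8845 and 10942 and slow troponin I, Tnni1, between 6343 and 9763, and these overlapped as well. Fast troponin I, Tnni2, was below all other members at 4168 to 5573. The place of Tnnt2 in this order depends on the length used. Its annotated exons together span 7752 bases against 1200 in the principal transcript, and per kilobase of all exons it came last, below Tnnt1 and Tnni1 as well, with a mean of 2023 against 2461 for Tnni2.

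**Figure D1:**
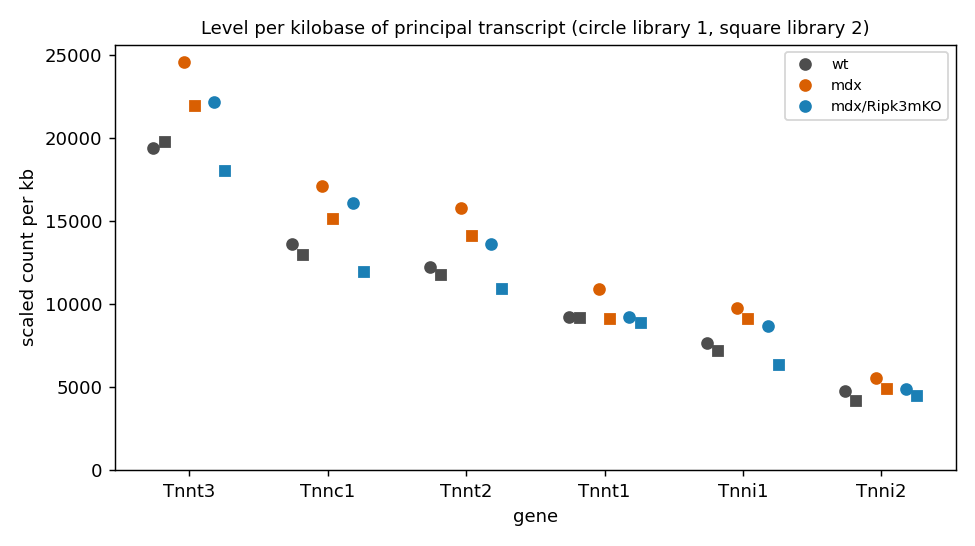
Scaled counts per kilobase of the principal transcript (y axis) for the 6 troponin genes (x axis) in each library, coloured by group, with circles for library 1 and squares for library 2. Tnnt3 lies above every other gene and Tnni2 below, while Tnnc1 overlaps with Tnnt2, Tnnt2 with Tnnt1, and Tnnt1 with Tnni1.

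The isoform mix of each troponin subunit varied by a few percentage points over the libraries. Of the troponin T transcripts, counted per kilobase of the principal transcript, fast Tnnt3 made up 47.5% to 49.2%, cardiac Tnnt2 28.8% to 31.2% and slow Tnnt1 20.2% to 23.4%. Of the 2 troponin I genes measured, slow Tnni1 made up 58.6% to 65.1%. The Tnni1 share was 62.4% ± 1.17 (SD, n = 2) in wt, 64.4% ± 1.03 in mdx and 61.3% ± 3.79 in mdx/Ripk3mKO, and the mdx/Ripk3mKO libraries, at 64.0% and 58.6%, overlapped with both other groups. The Tnnt1 share was 22.5% in both wt libraries, 21.3% and 20.2% in the mdx pair, and 20.5% and 23.4% in the mdx/Ripk3mKO pair. Tnnt1 thus took a lower share in both mdx libraries than in both wt libraries, while the mdx/Ripk3mKO libraries lay on either side of wt. These shares are built over the members and were given no test.

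The comparison of libraries labelled mdx with those labelled wt asks whether the dystrophic label went with a different troponin output. All 6 genes stood higher on average in mdx, by 0.12 to 0.35 on the log2(scaled count + 1) scale, and none passed the threshold of adjusted p under 0.05 (limma, Benjamini-Hochberg over 14077 genes). In this comparison 0.0071% of all genes tested passed, and 49% stood higher on average. The median of the 6 was 0.26, and that of all genes was -0.0022.

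Among the fast isoforms, Tnnt3 (ENSMUSG00000061723, mm10 chromosome 7, 142498836 to 142516008, plus strand) was at 24790 and 22087 scaled counts in mdx and at 19572 and 19896 in wt. Both mdx libraries were above both wt libraries. The log2 fold change was 0.25 ± 0.10 (SE, n = 2 and 2, limma adjusted p = 0.78). Tnni2 (ENSMUSG00000031097, chromosome 7, 142441808 to 142444410, plus strand) was at 4280 and 3758 in mdx and at 3676 and 3201 in wt, again without overlap. The gap between the nearest libraries was smaller than the difference between the 2 libraries of either group. Its log2 fold change was 0.23 ± 0.08 (limma adjusted p = 0.668).

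Among the slow isoforms, Tnni1 (ENSMUSG00000026418, chromosome 1, 135799402 to 135810989, plus strand) was at 11228 and 10504 in mdx and at 8821 and 8242 in wt. It showed the largest average difference of the 6 genes, and its log2 fold change was 0.35 ± 0.17 (limma adjusted p = 0.824). Tnnt1 (ENSMUSG00000064179, chromosome 7, 4504570 to 4516004, minus strand) was at 11237 and 9370 in mdx and at 9468 and 9419 in wt. The mdx libraries lay on either side of the wt pair, so Tnnt1 alone of the 6 overlapped between the groups, at 0.12 ± 0.07 (limma adjusted p = 0.83). Tnnc1 (ENSMUSG00000091898, chromosome 14, 31208312 to 31211729, plus strand), the calcium sensor paired with slow fibres and heart, was at 12331 and 10907 in mdx and at 9837 and 9333 in wt. Its log2 fold change came to 0.28 ± 0.17 (limma adjusted p = 0.85).

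Cardiac troponin T, Tnnt2 (ENSMUSG00000026414, chromosome 1, 135836354 to 135852260, plus strand), was at 18956 and 16901 in mdx and at 14691 and 14113 in wt. Both mdx libraries were above both wt libraries, and the log2 fold change was 0.31 ± 0.12 (limma adjusted p = 0.75). In all, 5 of the 6 genes were higher without overlap, as were 17.6% of all genes tested, and 2 (Tnnt2 and Tnni2) had an unadjusted p under 0.05 and were higher, as were 3.44% of all genes. The call depends on which libraries set the spread. When the fit held just these 2 groups, Tnni1 (limma adjusted p = 0.00658) and Tnnt2 (adjusted p = 0.01875) rose in mdx with the same fold changes, among 103 genes called, 0.742% of those tested. Leaving out either wt library or either mdx library, no troponin gene passed, where 0% of all genes did.

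**Figure D2:**
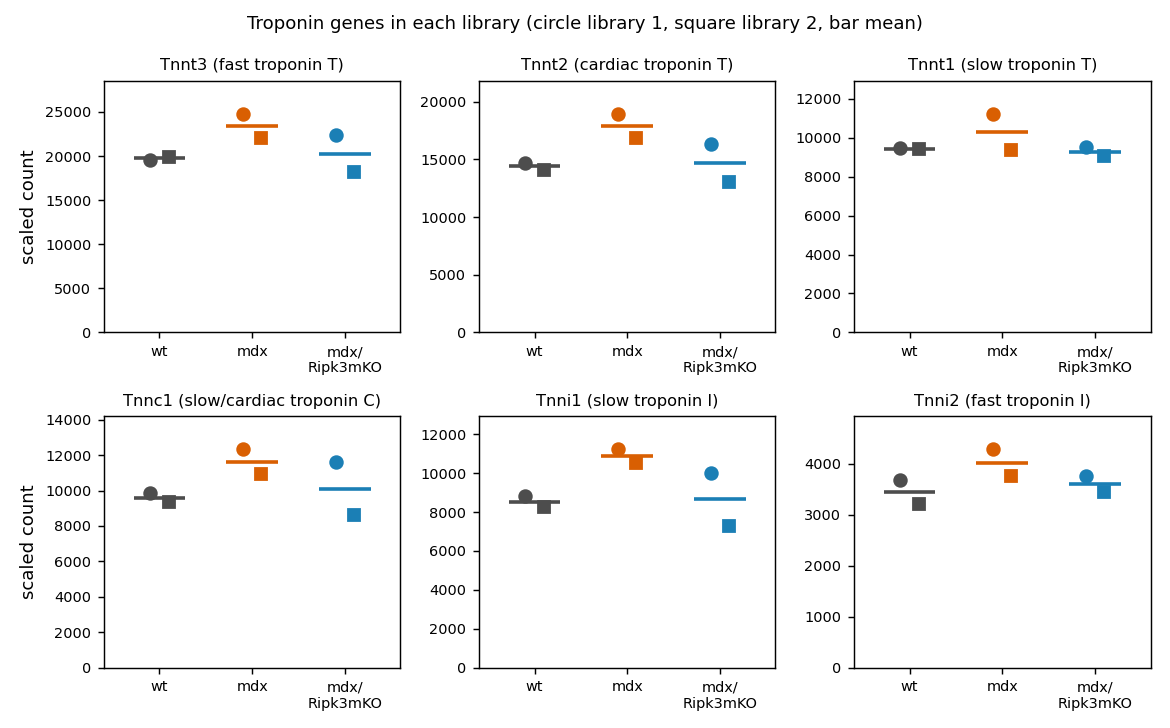
Scaled counts (y axis, from 0) of the 6 troponin genes, one panel a gene, by labelled group (x axis), with a circle for library 1, a square for library 2 and a bar at the mean. In 5 panels both mdx libraries lie above both wt libraries, and in the Tnnt1 panel mdx library 2, at 9370, lies just below them.

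The second comparison sets mdx/Ripk3mKO libraries against the same mdx libraries, so the first 2 comparisons share the mdx libraries and are given side by side only. All 6 genes stood lower on average in mdx/Ripk3mKO, by 0.14 to 0.35 on the log2 scale, with a median of -0.22 against -0.0021 over all genes, of which 50.7% stood lower. None passed (limma), where 0.206% of all genes did, and none had an unadjusted p under 0.05, where 5.87% of all genes did and were lower. Tnni1 was at 10008 and 7295 scaled counts in mdx/Ripk3mKO, both below the mdx libraries. The log2 fold change was -0.35 ± 0.17 (limma adjusted p = 0.555). Tnnt2 was at 16359 and 13068, again both below mdx, at -0.29 ± 0.12 (limma adjusted p = 0.432). Lower without overlap were thus 2 of the 6 genes, as were 20.3% of all genes tested.

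In the other 4 genes library 1 labelled mdx/Ripk3mKO exceeded mdx library 2, so the groups overlapped. Tnnt3 was at 22361 there and at 18150 in library 2, a log2 fold change of -0.22 ± 0.10 against mdx. Tnnc1 was at 11610 and 8604, at -0.21 ± 0.17. Tnnt3 and Tnnc1, like Tnni1 and Tnnt2, differed more between the mdx/Ripk3mKO libraries than between the group means. Tnnt1 was at 9509 and 9084, at -0.14 ± 0.07, and Tnni2 at 3759 and 3435, at -0.16 ± 0.08. For Tnni2 the overlap came to a single scaled count, 3759 against 3758. Adjusted p for these 4 genes lay between 0.489 and 0.72 (limma). Without library 1, Tnni1 (-0.57, limma adjusted p = 0.000377), Tnnt2 (-0.45, 0.00288), Tnnc1 (-0.43, 0.00587) and Tnnt3 (-0.37, 0.0112) fell in the one library left, among 278 genes called, 1.99% of those tested. Without library 2 instead, none of the 6 passed, where 0.2% of all genes did, and Tnnc1 stood at 0.0016.

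**Figure D3:**
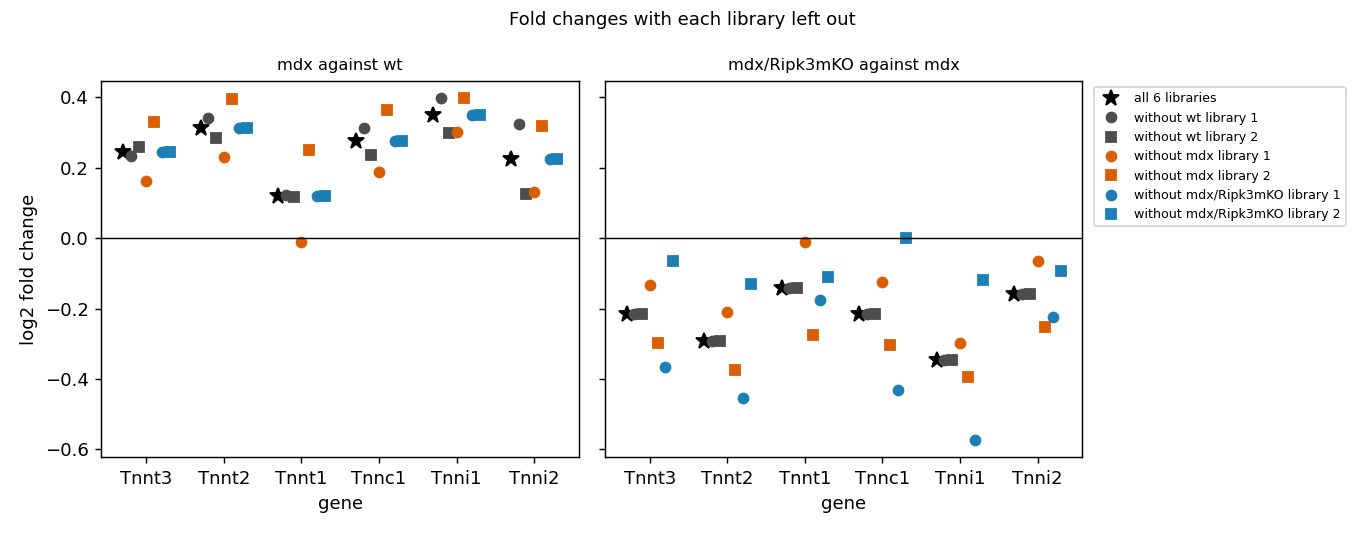
Log2 fold changes (y axis) of the 6 troponin genes (x axis) for mdx against wt and for mdx/Ripk3mKO against mdx, with all 6 libraries (star) and with each library left out (coloured symbols). For mdx against wt every value is above 0 except Tnnt1 without mdx library 1 (-0.011), and for mdx/Ripk3mKO against mdx the values without mdx/Ripk3mKO library 1 and without library 2 lie far apart for Tnni1, Tnnc1, Tnnt2 and Tnnt3, while Tnnt1 and Tnni2 move more with the mdx libraries.

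Against wt, the mdx/Ripk3mKO libraries showed small average differences. The average differences ran from -0.02 for Tnnt1 to 0.07 for Tnni2, with a median of 0.026 against 0.0012 over all genes, and none of the 6 passed. Of the 6, 5 stood above 0, as did 50.5% of all genes. No gene of the whole table passed (0% of genes tested, limma), 468 genes (3.32%) had an unadjusted p under 0.05, and no other tool was run on these scaled values. All 6 genes overlapped between the groups, whereas 29.4% of all genes did not. For 5 genes, all but Tnni2, the mdx/Ripk3mKO libraries lay on either side of the wt pair, as for Tnni1, with 10008 and 7295 around 8821 and 8242. The 95% intervals still allow sizeable differences, from -0.49 to 0.49 for Tnni1 and from -0.27 to 0.32 for Tnnt2. The F-test over the 3 labelled groups called no troponin gene either (limma adjusted p from 0.642 for Tnni2 to 0.866 for Tnnc1), where 0.0781% of all genes passed.

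**Figure D4:**
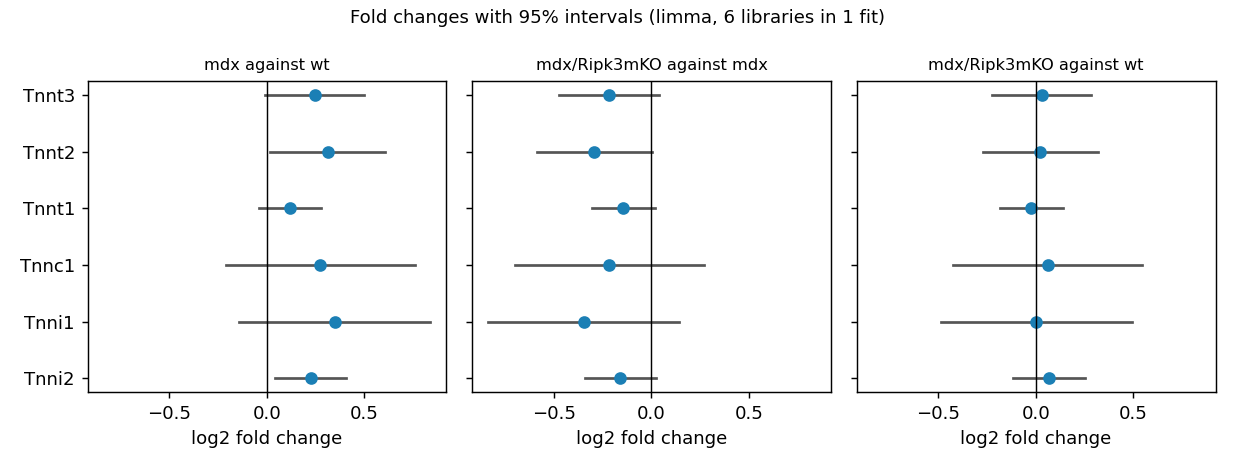
Log2 fold changes (x axis) of the 6 troponin genes (y axis) in the 3 comparisons, as points with 95% intervals from limma. The points for mdx against wt lie above 0 and those for mdx/Ripk3mKO against mdx below 0, and the intervals of Tnnt2 and Tnni2 in mdx against wt leave out 0 before adjustment.

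The extremes fell in the same libraries for fast, slow and cardiac genes. Each was highest in mdx library 1, and 5 were lowest in mdx/Ripk3mKO library 2, while Tnni2 was lowest in wt library 2. Over all genes tested, 17.8% were highest in mdx library 1 and 16.3% lowest in mdx/Ripk3mKO library 2. The range from lowest to highest library was 1.54-fold for Tnni1, 1.45-fold for Tnnt2, 1.43-fold for Tnnc1, 1.37-fold for Tnnt3, 1.34-fold for Tnni2 and 1.24-fold for Tnnt1. The libraries of mdx/Ripk3mKO differed most for 4 genes, Tnni1 (0.46 on the log2 scale), Tnnc1 (0.43), Tnnt2 (0.32) and Tnnt3 (0.30). For Tnnt1 the widest gap was in mdx (0.26, against 0.07 in mdx/Ripk3mKO), and for Tnni2 in wt (0.20, against 0.13). The median difference between the 2 libraries of a group was 0.07 on the log2 scale in wt, 0.17 in mdx and 0.31 in mdx/Ripk3mKO, where all genes tested had medians of 0.11, 0.11 and 0.11.

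**Figure D5:**
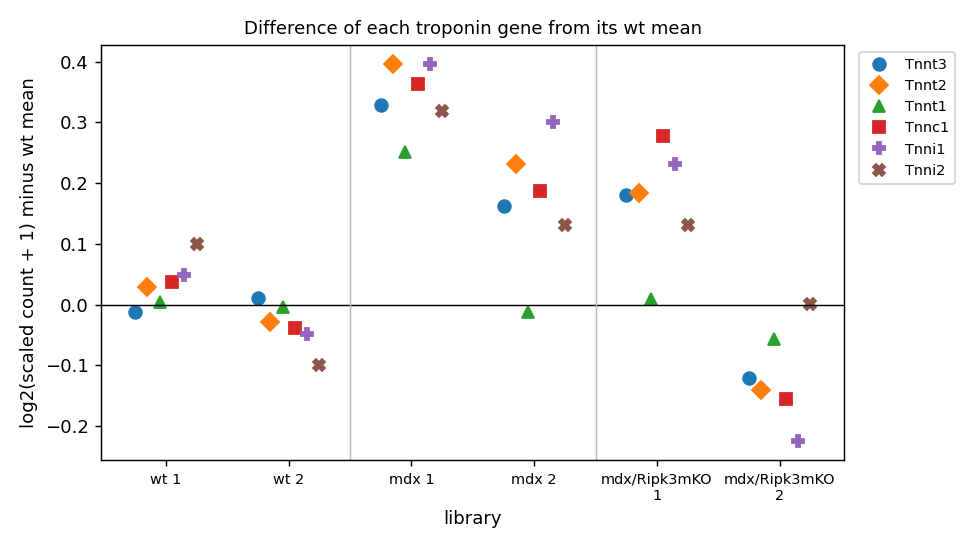
Difference of each troponin gene from its wt mean on the log2(scaled count + 1) scale (y axis) in each library (x axis), with one symbol a gene. The genes are spread near 0 in wt, are all highest in mdx library 1, and in mdx/Ripk3mKO differ between library 1 and library 2, with Tnni1 at 0.23 and -0.23.

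The profiles of the members were also compared with each other. Likeness was measured as the root mean square difference between 2 profiles over the 6 libraries, each centred on its own log2 mean. The closest pairs were Tnnt2 with Tnnt3 at 0.042, Tnnt2 with Tnnc1 at 0.045, and Tnnt3 with Tnnc1 and Tnnt2 with Tnni1, both at 0.050, which join fast, slow and cardiac names. The most distant pair was Tnnt1 with Tnni1 at 0.16, although both are slow isoforms. The log2 ratio of Tnni1 to Tnnt1 moved from its wt mean by 0.15 and 0.31 in mdx and by 0.22 and -0.17 in mdx/Ripk3mKO. Because these are ratios within a library, scaling between libraries does not enter them.

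By the same measure, the genes nearest to the mean troponin profile among 9711 candidates with a mean of at least 100 scaled counts were Tfb1m (0.034), Unc45b (0.036), Klhl13 (0.037), Klhl40 (0.039) and P4ha1 (0.040). The mean troponin profile itself departed from its own average by 0.15. Unc45b is a myosin chaperone of striated muscle, Klhl40 a stabiliser of thin filament proteins, Tfb1m a mitochondrial ribosomal RNA methyltransferase and P4ha1 a collagen prolyl hydroxylase. Unc45b stood at 3525 and 3394 scaled counts in wt, at 4347 and 3711 in mdx and at 3789 and 2984 in mdx/Ripk3mKO. Among the nearest to Tnnt2 were the fast calcium pump Atp2a1 (0.031) and the sarcoplasmic reticulum protein Srl (0.035). Nearest to Tnnt3 were P4ha1 (0.017), Sesn1 (0.036) and Klhl13 (0.038), and nearest to Tnnt1 were Arl4a (0.022), Arhgap28 (0.023) and Chac2 (0.031). These likenesses over 6 libraries are descriptions.

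Troponin I and T genes lie in pairs on the chromosomes. Tnni1 ends 25.4 kb before Tnnt2 on chromosome 1, and Tnni2 ends 54.4 kb before Tnnt3 on chromosome 7. Genes between and beside them are given for mdx against wt, with no test against the troponin genes. Lad1, which lies between Tnni1 and Tnnt2, was at 60 and 44 scaled counts in wt and 59 and 40 in mdx. Lsp1, between Tnni2 and Tnnt3, was at 9666 and 8235 in wt and 9901 and 8230 in mdx, a log2 fold change of 0.02 ± 0.11. Csrp1 and Phlda3, upstream of Tnni1, were at -0.13 ± 0.08 and -0.05 ± 0.07, Nisch, 1.49 kb from Tnnc1, at -0.09 ± 0.05, and Ppp1r12c, 2.89 kb from Tnnt1, at -0.04 ± 0.08. Prr33 overlaps Tnnt3 on the opposite strand and was at 391 and 391 in wt, at 389 and 322 in mdx and at 261 and 295 in mdx/Ripk3mKO, the lowest pair, at -0.49 ± 0.11 against wt and -0.35 ± 0.11 against mdx. The sources used here do not say if strand entered the counting, so reads of Prr33 and Tnnt3 cannot be told apart where they overlap. The non-coding Nctc1, 28.6 kb from Tnnt3, was at 0.64 ± 0.28, from 67 and 63 scaled counts in wt and 76 and 136 in mdx, and Eps8l1, 24.1 kb from Tnnt1, was at -0.63 ± 0.55 with at most 20 scaled counts. None of these neighbours passed the threshold in any comparison, with or without mdx/Ripk3mKO library 1, except that Eps8l1 was too low to be tested without it.

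Lists of other contractile genes were counted in the same way. Over all genes tested, 49% stood higher in mdx than in wt and 50.7% lower in mdx/Ripk3mKO than in mdx. Of 17 tested thin filament partners, 13 stood higher in mdx than in wt with a median of 0.20, and 13 stood lower in mdx/Ripk3mKO than in mdx with a median of -0.11. None of the 17 passed in either comparison (limma). The pointed-end cap Tmod1 was at 0.65 ± 0.17 and -0.69 ± 0.17 in these comparisons and nebulin, Neb, which spans the filament, at 0.24 ± 0.08 and -0.37 ± 0.08. The tropomyosin Tpm2 was at 29295 and 26895 scaled counts in wt, at 34970 and 29667 in mdx and at 32979 and 27094 in mdx/Ripk3mKO, while Tpm3 stayed between 4389 and 4889 in all 6 libraries. Of 12 fast fibre genes, all 12 stood higher in mdx than in wt (median 0.49) and 11 lower in mdx/Ripk3mKO than in mdx (median -0.42). Of 12 slow fibre genes, 11 and 11 did (medians 0.36 and -0.47). No fast or slow gene passed in any comparison with all 6 libraries. Among them Atp2a1 was at 0.31 ± 0.10 in mdx against wt, the calcium store protein Casq1 at 1.12 ± 0.47 and the calcium pump regulator sarcolipin, Sln, at 1.05 ± 0.34, from 12 and 13 scaled counts in wt to 24 and 30 in mdx. Against wt, the medians of these 3 lists in mdx/Ripk3mKO were 0.05, 0.03 and 0.07.

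These calls depended on the libraries fitted. The lists were not refitted without mdx/Ripk3mKO library 2, so whether a fall was particular to library 2 was not tested. They were refitted without mdx/Ripk3mKO library 1. For mdx against wt this left every fold change as it was, and only the estimated spread and the genes tested changed. For Myl1 the fold change stayed at 0.44 while its SE went from 0.26 to 0.05. Without it, 6 of 12 fast genes (Atp2a1, Ckm, Myh1, Myl1, Mylpf and Pfkm), 5 of 12 slow genes (Casq2, Hspb7, Mybpc1, Myl6b and Myoz2) and 2 of 16 tested thin filament partners (Lmod2 and Tmod1) rose in mdx against wt, where 0.737% of all genes were called. Against mdx, 8 fast, 7 slow and 5 thin filament genes fell in the remaining mdx/Ripk3mKO library, where 1.99% of all genes were called. These falls rest on library 2. Library 1 overlapped with mdx for Mylpf, at 31159 against 32662 and 29784 in mdx and 23222 in library 2. For Tmod1 library 1 was lower, at 734 against 1075 and 939 in mdx and 527 in library 2. Without library 1, the list medians against mdx were -0.77, -0.59 and -0.25. Against wt none passed, and the medians were -0.28, -0.17 and -0.11, below 0 where they had been above it.

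Genes of calcium handling, which feeds the troponin switch, stood higher in mdx than in wt in 14 of 18 cases (median 0.20), where 49% of all genes did. In mdx/Ripk3mKO 13 stood lower than in mdx (median -0.12), where 50.7% of all genes did. None of the 18 passed, and Atp2a1, Atp2a2, Casq1 and Casq2 are also in the fast or slow fibre lists. The calcium release channel Ryr1 was at 6584 and 6616 in wt, at 7511 and 7422 in mdx and at 6417 and 5951 in mdx/Ripk3mKO. It narrowly missed the threshold in mdx/Ripk3mKO against mdx, at -0.27 ± 0.05 (limma adjusted p = 0.0507), and was at -0.33 without library 1. The median of the 18 was then -0.32. Of 14 genes of developing muscle, 11 stood higher in mdx than in wt (median 0.12), beside the same 49% of all genes. In mdx/Ripk3mKO 10 stood lower than in mdx (median -0.12), beside 50.7%, and none of the 14 passed. Actc1 of this list is also a thin filament partner. Without library 1, the median of the 14 in mdx/Ripk3mKO against mdx was -0.25. Neonatal myosin Myh8 was at 11679 and 12416 in wt, at 21405 and 19054 in mdx and at 13636 and 9077 in mdx/Ripk3mKO.

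Regulators linked to troponin transcription or splicing were split in direction. Of 29 tested, 12 stood higher and 17 lower in mdx than in wt (median -0.03), where 49% of all genes stood higher, and none of the 29 passed. Myod1, the myogenic factor, was at 23226 and 21120 in wt, at 19459 and 18636 in mdx and at 22696 and 23595 in mdx/Ripk3mKO. It was thus lower in both mdx libraries than in the other 4, at -0.22 ± 0.05 in mdx against wt (limma adjusted p = 0.418) and 0.28 ± 0.05 in mdx/Ripk3mKO against mdx (adjusted p = 0.0528). With all 6 libraries, Mef2c was at -0.68 ± 0.33 in the second comparison, Myf6 at -0.90 ± 0.49 and Ppargc1a at -0.56 ± 0.20. Their mdx/Ripk3mKO libraries differed, at 6410 and 3660 scaled counts for Mef2c, 320 and 147 for Myf6 and 387 and 258 for Ppargc1a. Without library 1, which leaves library 2 alone, Myod1 was at 0.31 in that comparison, Mef2c at -1.09, Myf6 at -1.46, Ppargc1a at -0.85 and Rbfox1 at -0.84. Of the 29 regulators, 15 then stood higher and 14 lower in that comparison. Serum response factor, Srf, was at -0.19 ± 0.06 and 0.25 ± 0.06. The neural and muscle splicing factor Rbfox1 was at 0.55 ± 0.14 and -0.60 ± 0.14, and myogenin was at 35263 and 29747 in wt and 34088 and 26795 in mdx.

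Markers of other cell types were read beside the troponin genes. Of 12 cardiac markers, 4 were measured. Tnnt2 and the developmental actin Actc1 were abundant, Actc1 at 39888 to 59532 scaled counts. The heart factor Gata4 was at 17 to 22 and the cardiac myosin Myh6 at 2 to 35, with 35 in mdx/Ripk3mKO library 1. Smooth muscle and pericyte markers summed to 54432 and 43697 in wt, to 57024 and 40403 in mdx and to 53452 and 49450 in mdx/Ripk3mKO, from 8 measured of 11, so each group's library 1 was the higher. Most of each sum was the actin Acta2, at 35974 to 51960, while Tagln was at 29 to 43 and Rgs5 at 11 to 27. Between mdx/Ripk3mKO and mdx, 3 of the 8 stood higher and 5 lower (median -0.02). The pericyte proteoglycan Cspg4 passed as higher (0.44 ± 0.07, limma adjusted p = 0.0289, and 0.0282 without library 1), while the pericyte receptor Pdgfrb was at -0.57 ± 0.12 (adjusted p = 0.0836, and 0.00327 without library 1) and Mylk at -0.53 ± 0.13 (adjusted p = 0.143). Fibro-adipogenic markers summed to 3882 to 5238 (5 of 10 measured), mostly Gsn at 3689 to 4953 with Pdgfra at 24 to 32, endothelial markers to 34 to 53 (5 of 8) and macrophage markers to 55 to 77 (4 of 10). The satellite cell list summed to 31518 to 33457 (9 of 10) and the cell cycle list to 47581 to 53229 (8 of 8), and in these 2 lists no gene passed in any comparison. The part of these cells in the troponin values was not tested.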

How the data were processed

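RNA of 6 libraries was analysed, 2 each labelled wt, mdx and mdx/Ripk3mKO. The deposited table holds a score per gene: read counts that the authors scaled between libraries and rounded, as read from the values, since median-of-ratios size factors were 1.002 in every library and small whole numbers were skipped or doubled at regular steps. Per the submitters' processing notes, Trimmomatic 0.36, STAR 2.6.1d, featureCounts 1.6.3, DESeq2 1.18.1 and build mm10 were used, with no order given. Because the scores are not raw counts, limma 3.58.1 in R 4.3.3 was fitted on log2(scaled count + 1) over all 6 libraries (3 residual degrees of freedom, variance trend, robust fitting with statmod 1.5.0). The 14077 genes reaching 10 in 2 or more libraries entered the fit. P-values were adjusted by Benjamini-Hochberg (threshold 0.05). Errors are limma's moderated SE, or SD where so marked. The fit was tested on simulated counts whose changes were larger than those of the troponin genes, so differences as small as theirs were not covered. Both mdx columns carry 1 header and were named library 1 and 2 in column order. Transcript lengths came from GENCODE M21 (GRCm38), matched by gene ID, using the APPRIS principal transcript, the longest where several tie. The members and lists were chosen with earlier results of these data known. Named genes were the members, Ripk3, Dmd, at most 4 genes per list with the smallest p, the nearest profiles and neighbours within 50 kb. Not all of these are described, and 1 of the nearest profiles is not reported here. Tpm2, Tpm3, Pax7, Mki67, Myog, Xist, Ddx3y, Actc1, Gata4, Myh6, Acta2, Tagln, Gsn, Pdgfra and genes called without mdx/Ripk3mKO library 1, an alternative added after the data were seen, were named for their role or call, after their values were seen.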

Additional observations from a re-analysis of the deposited data

How the results depend on the processing

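The alternatives were other pseudocounts and filters, scaling by library total, quantile normalization, no variance trend or robust fitting, only the compared groups, and each library left out. Of 84 troponin values for mdx against wt 83 stayed above 0, and of 84 for mdx/Ripk3mKO against mdx 83 stayed below 0. Filters, fitting options and libraries outside a comparison cannot change its fold changes, and pseudocounts hardly move values this high. Many of these values were therefore bound to match the main fit, and the counts do not measure stability. Against wt, mdx/Ripk3mKO values were positive in 67 of 90 and negative in 23. Tnni1 there was -0.0087 when scaled by library total and -0.0043 with quantile normalization.

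The number of genes called moved from 29 for mdx/Ripk3mKO against mdx to 18 with a filter at 50, 1 without trend or robust fitting and 2 with only the groups compared, and for mdx against wt from 1 to 103 with only the groups compared, where Tnnt2 (0.31) and Tnni1 (0.35) passed. The F-test called 11 genes, and 1 with a filter at 50 or without trend or robust fitting. The cause was not tested. With single libraries left out, calls ranged from 0 to 103 for mdx against wt, 1 to 278 for mdx/Ripk3mKO against mdx, 0 to 20 for mdx/Ripk3mKO against wt and 1 to 203 for the F-test.

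In the same fits, mdx against wt ran from 0.23 to 0.40 for Tnnt2, 0.30 to 0.40 for Tnni1, 0.13 to 0.33 for Tnni2 (0.126 without wt library 2, 0.132 without mdx library 1) and -0.011 to 0.25 for Tnnt1 (lowest without mdx library 1). Without mdx/Ripk3mKO library 1 or 2, Tnnt2 and Tnni1 passed there. Against mdx, mdx/Ripk3mKO ran from -0.45 to -0.13 for Tnnt2, -0.37 to -0.065 for Tnnt3, -0.57 to -0.12 for Tnni1, -0.43 to 0.0016 for Tnnc1, -0.27 to -0.012 for Tnnt1 and -0.25 to -0.065 for Tnni2 (both nearest 0 without mdx library 1), with the median of the 6 from -0.40 to -0.10. Against wt it ran from -0.056 to 0.010 for Tnnt1, -0.14 to 0.18 for Tnnt2, -0.12 to 0.18 for Tnnt3, -0.23 to 0.23 for Tnni1, -0.033 to 0.17 for Tnni2 and -0.16 to 0.28 for Tnnc1, with the median from -0.13 to 0.18. F-test adjusted p (limma) ran from 0.00447 to 0.954 for Tnnt2, 0.0189 to 0.962 for Tnnt3, 0.000758 to 0.971 for Tnni1 and 0.0119 to 0.986 for Tnnc1. A library left alone in its group is assumed to vary like the other groups.

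Replicate numbers could be used for wt and mdx/Ripk3mKO only, since both mdx columns carry the same number. Deviations of same-numbered wt and mdx/Ripk3mKO libraries correlated at -0.0088 over 13761 genes, which gives no sign of pairing over genes as a whole. For every troponin gene, however, library 1 was above library 2 in each group, apart from Tnnt3 in wt (19572 and 19896). In mdx these numbers are column order only. Whether this shared order reflects pairing was not tested. With the replicate block 0 genes were called, as without it, and the troponin values kept their size, such as Tnni1 at 0.0030.

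Isoform shares depended on length. Not divided by length, mean shares over the libraries were 45.4% for Tnnt3 and 33.6% for Tnnt2 of troponin T, and 71.6% for Tnni1 and 28.4% for Tnni2 of troponin I. Per kilobase of all exons, chosen after seeing the data, they were 67.5%, 10.2%, 51.2% and 48.8%, against 48.3%, 30.0%, 62.7% and 37.3% with the principal transcript.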
